A study of Mus musculus with 6 samples.

Results

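The 8 genes described here make up most of the MHC class II machinery of the mouse: the chain genes H2-Aa, H2-Ab1 and H2-Eb1, the peptide-exchange genes H2-DMa, H2-DMb1 and H2-DMb2, the invariant chain gene Cd74 and the transactivator gene Ciita. They were found as the probes whose RefSeq accession belongs to 1 of these genes, which gave 9 of the 55681 distinct probes of the array, 2 for H2-Ab1 and 1 for each of the others. The RNA came from spheres, floating cell clusters cultured without serum in DMEM/F12 with B27, EGF, bFGF and heparin, made from mouse mammary tumors. In the hetero group (3 arrays) the mice were FRS2beta hetero, and in the knockout group (3 arrays) they were FRS2beta knock-out. FRS2beta, encoded by Frs3, is an adaptor that docks on receptor tyrosine kinases, and the comparison asks how sphere expression differs between the genotypes. The strain, H2 haplotype and age of the mice, the oncogene behind the tumors and whether replicates were separate animals or cultures are not stated in the labels, so each p-value covers the spread of these arrays alone, and that spread may be technical.

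MHC class II molecules are pairs of an alpha and a beta chain that carry peptides from the endosome to the cell surface, where CD4 T cells read them. The invariant chain fills the groove while the pair is being built, proteases trim it to a short remnant, and the DM heterodimer exchanges that remnant for a peptide. Dendritic cells, B cells and macrophages express class II constitutively or on activation, and epithelial and stromal cells can be induced by interferon gamma. Transcription is switched on through CIITA, which binds no DNA itself and is recruited by factors sitting on the X and Y boxes of class II promoters.

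The promoters of 5 of the 8 genes were matched in a RefSeq promoter table (build GRCm38.p6, 250 bases before to 50 bases after each start). The stretches shown are those in which the class II boxes lie, because these boxes are the sites known for this family. Both cores were found in 3 of the 5. Capitals mark the X box core, AACNGATG, and the Y box core, TGATTGG. The letters do not overlap each other. In these promoters only the strand of the gene was searched.
H2-Eb1, chr17:34305758-34305817, plus strand: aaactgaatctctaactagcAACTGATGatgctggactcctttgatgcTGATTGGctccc
H2-DMb1, chr17:34153080-34153139, plus strand: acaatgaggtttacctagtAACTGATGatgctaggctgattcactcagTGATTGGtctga
H2-DMb2, chr17:34145109-34145168, plus strand: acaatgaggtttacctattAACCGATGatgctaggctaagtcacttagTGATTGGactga
H2-Aa, chr17:34287862-34287921, minus strand: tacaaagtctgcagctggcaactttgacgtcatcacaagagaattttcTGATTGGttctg
The X core began 28 bases before the Y core in H2-Eb1 and 29 bases before it in H2-DMb1 and H2-DMb2. The Y core began at position -61, -63, -92 and -50 from the start in H2-Eb1, H2-DMb1, H2-DMb2 and H2-Aa. On the strand of the gene, H2-Aa held the Y core without these X letters, and neither promoter listed for H2-DMa held either core.

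Of 32851 mouse promoters in the table, 7.82% held the Y core and 2.32% the X core on either strand. These shares are therefore not like for like with the search of single promoters above. The X core stood 15 to 45 bases before the Y core on the same strand in 7 promoters, or 0.0213%, a spacing chosen after the class II promoters had been read. H2-Eb1, H2-DMb1 and H2-DMb2 were 3 of these 7, and the others belong to the related beta-chain gene H2-Eb2 and to BC051142, H2-M10.4 and Gm35444. A match describes letters and is no measure of binding.

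Signals are given as the scaled log2 signal, which is the log2 of the processed spot intensity minus the 75th percentile of the array, so that 0 is the signal of a bright probe. Intensity before scaling is called the processed signal. A difference counts as called at an adjusted p of 0.05 (limma, Benjamini-Hochberg over 15838 genes). Before scaling, the 75th percentile was 404 to 416 on hetero arrays and 465 to 487 on knockout arrays, and 60.4% to 61.3% and 60.5% to 69.6% of probes were well above background. No spot of the 9 probes was saturated or carried an outlier flag. Frs3, the targeted gene, was well above background on 1 of 3 hetero and 0 of 3 knockout arrays, with scaled signals of -7.30, -4.64 and -6.01 in hetero and -7.88, -7.95 and -7.36 in knockout spheres. Whether its probe lies in the deleted part is not stated. The scaling expresses a change against the bulk of the genes. Scaling to 4 bright spike-in controls, RNA added at labelling, instead moved the median log2 change of all genes by 0.44, so that falls smaller than 0.44 changed sign under it.

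The family did not move as one. H2-Ab1 and H2-DMb1 rose in knockout spheres by 1.40-fold and 1.45-fold, while Cd74 and H2-Eb1 fell by 1.52-fold and 1.30-fold, falls that did not hold under spike-in scaling, where H2-Eb1 changed sign. H2-DMa differed little, Ciita was dim and scattered, and H2-Aa and H2-DMb2 stayed at background on every array. Of the 6 genes tested, 4 were called, 2 higher and 2 lower. Among all tested genes 60.4% were called, 27.9% higher and 32.5% lower, so the number of class II calls was near that of genes at large. In size too the changes were moderate: 24.2%, 21.8%, 19% and 31% of all tested genes changed at least as much as H2-Ab1, H2-DMb1, Cd74 and H2-Eb1, and the median absolute log2 change of all genes was 0.22.

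**Figure D1:**
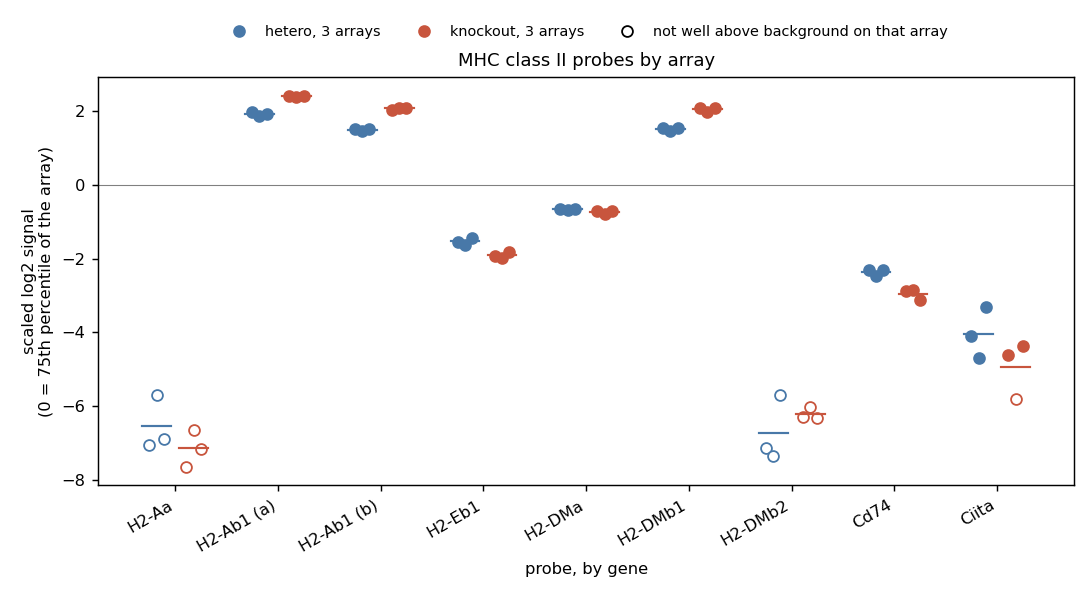
Scaled log2 signal of each of the 9 class II probes on each of the 6 arrays (points), with the group mean as a line; blue is hetero and red knockout, and open points were not well above background on that array. H2-Ab1 and H2-DMb1 lie higher and H2-Eb1 and Cd74 lower on all 3 knockout arrays, while H2-Aa and H2-DMb2 stay at background. Levels of different probes are not comparable.

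Among the chain genes, H2-Ab1 encodes the beta chain of the I-A molecule. Its brighter probe had processed signals of 1627, 1493 and 1587 on hetero arrays 1 to 3 and of 2479, 2567 and 2582 on knockout arrays 1 to 3. After scaling, this was 1.98, 1.89 and 1.93 in hetero and 2.42, 2.40 and 2.43 in knockout spheres. Every knockout array lay above every hetero array. H2-Ab1 thus rose by 0.48 ± 0.03 log2 units (SE, n = 3 each, limma adjusted p = 9.32e-05; 95% interval 0.40 to 0.56). The second H2-Ab1 probe was 1.52, 1.46 and 1.53 in hetero and 2.05, 2.09 and 2.11 in knockout spheres. In a limma fit of 35427 probes, of which 47% were called, it rose by 0.58 ± 0.03 (adjusted p = 0.000138). Both H2-Ab1 probes therefore moved the same way.

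H2-Eb1 encodes the beta chain of the I-E molecule, the other class II pair of the mouse. Its scaled signal was -1.54, -1.62 and -1.43 on the hetero arrays and -1.94, -1.97 and -1.81 on the knockout arrays, with no overlap between groups. The fall was 0.37 ± 0.07 log2 units (SE, n = 3 each, limma adjusted p = 0.00534), opposite to H2-Ab1. Before scaling, the H2-Eb1 groups overlapped by 1 array: 142, 131 and 154 in hetero and 121, 124 and 137 in knockout spheres. With spike-in scaling H2-Eb1 differed by 0.065 (adjusted p = 0.423), so its direction rests on the scaling.

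H2-Aa encodes the alpha chain that pairs with the product of H2-Ab1. Its only probe gave processed signals of 2.32 to 7.76 over the 6 arrays and was well above background on 0 of them, so no fold is given. The alpha chain thus had no measured level in either genotype although both probes of its partner were well above background on all 6 arrays. Whether the H2-Aa probe matches the allele of these mice could not be checked, so background signal does not show that the gene was silent. The same limit holds for the probes of H2-Ab1, H2-Eb1 and the other H2 genes. Whether allele match has a part in their differences was not tested.

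Among the peptide-exchange genes, H2-DMb1, which encodes the beta chain of DM, rose. Its scaled signal was 1.55, 1.47 and 1.56 on the hetero arrays and 2.08, 2.00 and 2.09 on the knockout arrays. Again no knockout array overlapped a hetero array, and the rise was 0.53 ± 0.04 log2 units (SE, n = 3 each, limma adjusted p = 0.000169). H2-DMa, which encodes the alpha chain of DM, was -0.66, -0.67 and -0.65 in hetero and -0.71, -0.79 and -0.70 in knockout spheres. The H2-DMa arrays did not overlap, but the difference of -0.07 ± 0.03 missed the threshold (limma adjusted p = 0.0853; 95% interval -0.15 to 0.00). With spike-in scaling H2-DMa was called higher by 0.36 (adjusted p = 0.000433). H2-DMb2, a second DM beta gene next to H2-DMb1, gave processed signals of 2.47 to 7.93, at background on all 6 arrays. The probe sequences are not among the files used here, so whether the H2-DMb1 probe could also detect H2-DMb2 was not tested.

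Cd74, the invariant chain gene, fell. Its scaled signal was -2.30, -2.47 and -2.30 on the hetero arrays and -2.87, -2.86 and -3.13 on the knockout arrays, without overlap. The fall was 0.60 ± 0.09 log2 units (SE, n = 3 each, limma adjusted p = 0.003), to 65.9% of the hetero level. With spike-in scaling Cd74 differed by -0.16 and was not called (adjusted p = 0.155). Under normexp, another background correction, its fall was 0.42.

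Ciita, the transactivator gene, was the only tested gene of the family that missed the background limit on an array. It was well above background on 3 of 3 hetero arrays and on 2 of 3 knockout arrays, with processed signals of 23.8, 15.7 and 42.2 in hetero and 18.9, 8.73 and 23.1 in knockout spheres. The Ciita groups overlapped, and the scaled difference of -0.90 ± 0.52 (SE, n = 3 each) was not called (limma adjusted p = 0.188). Its 95% interval ran from -2.20 to 0.41 and so covers both falls and rises. With normexp, which shrinks dim signals, the difference was -0.38 and was called (adjusted p = 0.0468).

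**Figure D2:**
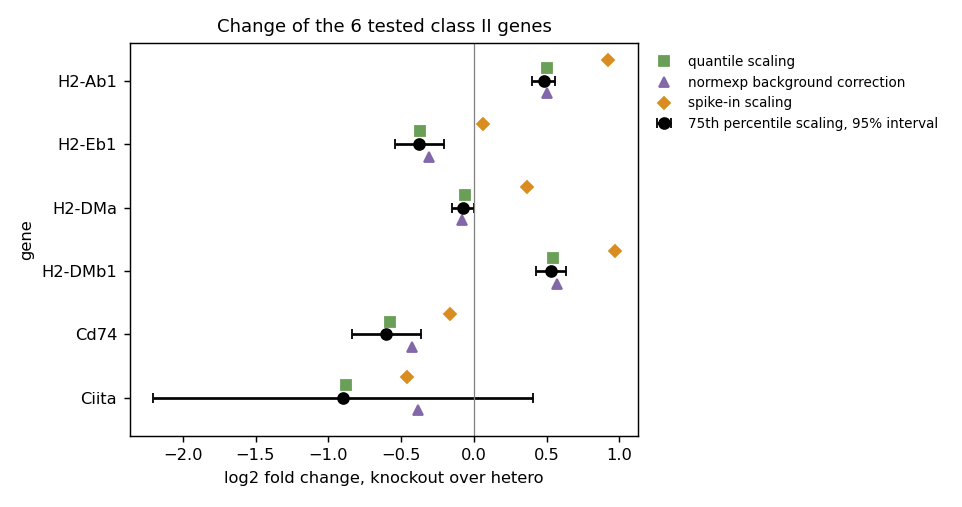
Log2 fold change of knockout over hetero for the 6 tested class II genes, with 95% intervals from limma under the 75th percentile scaling (black) and the estimates under quantile scaling, normexp background correction and spike-in scaling. H2-Ab1 and H2-DMb1 are above 0 in all 4, while H2-Eb1 and H2-DMa move from below to above 0 with spike-in scaling.

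Over the 6 tested genes, groups did not overlap in 5, beside 68.9% of all tested genes. The median log2 change of the 6 was -0.22, against -0.03 for all genes, with single values from -0.90 (Ciita, not called) to 0.53. With spike-in scaling the medians were 0.215 and 0.41, so the sign of the median rests on the scaling.

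Ratios of 2 members within an array do not change when the array is scaled by a constant, as in all scalings here but the quantile one. The log2 ratio of H2-Eb1 to H2-Ab1 was -3.52, -3.51 and -3.36 on the hetero arrays and -4.36, -4.37 and -4.24 on the knockout arrays, a shift of -0.86. The ratio of Cd74 to H2-Ab1 shifted by -1.08, from -4.29 ± 0.06 to -5.37 ± 0.17 (SD, n = 3 each). For H2-DMb1 to H2-DMa, the genes of the DM pair, the shift was 0.61, from 2.18 ± 0.04 to 2.79 ± 0.00 (SD, n = 3 each). H2-DMa to H2-Ab1 shifted by -0.56 and Ciita to H2-Ab1 by -1.38, the latter with Ciita on knockout array 2 not well above background. In each of these 5 ratios the knockout arrays lay on one side of all hetero arrays. The exact permutation test (two-sided) gave p = 0.1 for each, adjusted 0.1 over the 5 ratios, which is the smallest p that 3 against 3 arrays allow. Ratios with H2-Aa or H2-DMb2 were not formed because those probes were not well above background.

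Of the 8 genes, 6 lie on chromosome 17 in the class II region of the MHC. RefSeq lists 21 protein-coding genes from H2-K1 to Btnl2, of which 18 were tested, 3 called higher, 10 lower and 5 not called. Over all tested genes 27.9% were called higher and 32.5% lower. Neighbours within the region moved in opposite directions. H2-DMb1 rose by 0.53, while the next genes in order, the immunoproteasome and peptide transporter genes Psmb9, Tap1, Psmb8 and Tap2, fell by 1.66, 0.63, 0.94 and 0.73 log2 units, and these 4 were still called lower with spike-in scaling. H2-Ab1 rose by 0.48 beyond them, and H2-Eb1 and H2-Eb2 fell by 0.37 and 1.03 further on, H2-Eb2 also with spike-in scaling (-0.59) but H2-Eb1 not. Frs3, the targeted gene, lies on the same chromosome, with 289 protein-coding genes between it and Btnl2.

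**Figure D3:**
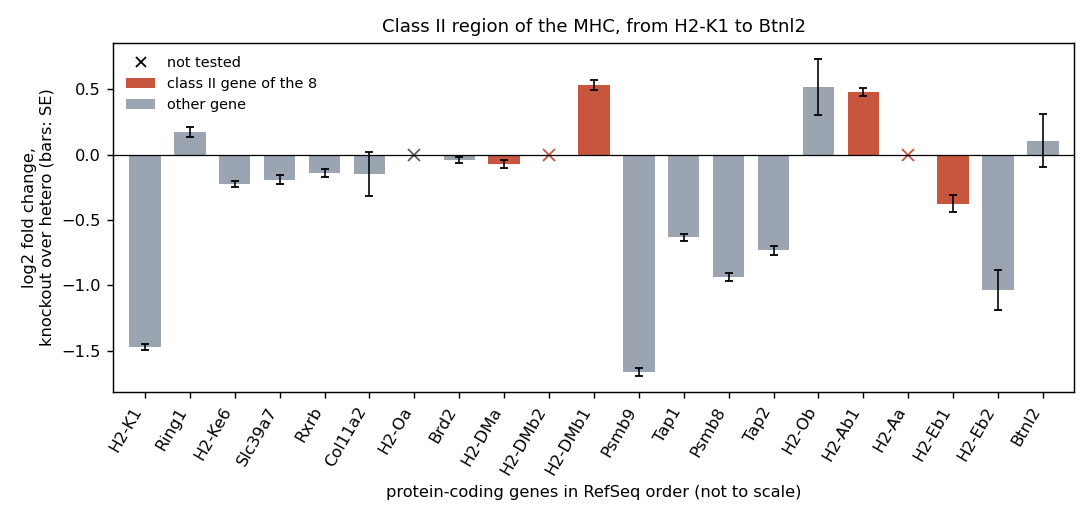
Log2 fold change of knockout over hetero (bars, with SE) for the 21 protein-coding genes from H2-K1 to Btnl2 in RefSeq order, not to scale; red marks genes of the 8, grey the others, and a cross a gene that was not tested. H2-DMb1 and H2-Ab1 stand above 0 on both sides of the falling Psmb9, Tap1, Psmb8 and Tap2.

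The remaining class II genes of the region that had a probe were dim. No probe was matched to H2-Ea, H2-Pa or H2-Pb, so these were not measured. H2-Eb2, a second E beta gene, was -4.49, -4.06 and -4.25 on the hetero arrays and -5.25, -5.11 and -5.54 on the knockout arrays, with 3 and 2 arrays well above background. It fell by 1.03 ± 0.15 log2 units (SE, n = 3 each, limma adjusted p = 0.0025), and fell by 0.39 with normexp. H2-Ob, the beta chain of DO, which inhibits DM, differed by 0.52 ± 0.21 and was not called (limma adjusted p = 0.0856). It was called with spike-in scaling (0.96, limma adjusted p = 0.00702), but with normexp the difference was 0.0075 (limma adjusted p = 0.928). H2-Oa, the DO alpha chain gene, stayed at background on every array.

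Among the factors that act on class II promoters, calls were about as frequent as among all genes. Of 14 listed, 12 were tested, and 1 (Creb1, 0.22) was called higher, 5 lower and 6 not called, with a median log2 change of -0.18, beside 27.9% higher and 32.5% lower over all genes. With spike-in scaling 7 were called higher and 1 lower. Irf8, a factor of myeloid and B cells, was -0.75, -0.73 and -0.79 in hetero and -1.88, -2.18 and -2.03 in knockout spheres. Irf8 fell by 1.27 ± 0.08 and Irf1, an interferon-induced factor that acts on Ciita, by 0.50 ± 0.03 (SE, n = 3 each, limma adjusted p = 7.18e-05 and 9.57e-05). Irf2 and Usf1 fell by 0.29 and 0.24 but were called higher with spike-in scaling, and Irf1 was then not called. Rfxap, an RFX subunit gene, fell by 0.31, a fall within the 0.44 that spike-in scaling adds, while Rfx5 and Rfxank differed by -0.28 ± 0.21 and -0.04 ± 0.04 and were not called. With normexp Rfx5 was called lower (-0.24), and with spike-in scaling Rfxank was called higher (0.40). For NF-Y, the Y box factor, Nfya, Nfyb and Nfyc differed by -0.11, -0.09 and -0.10 and were not called. With spike-in scaling all 3 NF-Y genes were called higher (0.33 to 0.35), with normexp Nfya was called lower (-0.12), and a second Nfyc probe was called higher (0.14).

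Genes that prepare class II molecules for loading or remove them were mostly lower. Of 11 tested, 8 were called lower and 2 higher (Sppl2a and Ctsd, by 0.15 and 0.09), with a median of -0.29. The shares over all genes were 32.5% lower and 27.9% higher. The number called higher was 0 with median scaling, with the replicate block and without hetero 3, knockout 2 or knockout 3. Ctss, cathepsin S, the protease that trims the invariant chain in antigen-presenting cells, ranged from 2.85 to 2.86 in hetero and from 1.19 to 1.22 in knockout spheres. Ctss fell by 1.65 ± 0.02, Lgmn, the endosomal protease legumain, by 0.86 ± 0.03, and Ifi30, a thiol reductase, by 0.50 ± 0.02 (SE, n = 3 each, limma adjusted p = 3.92e-07 to 2.96e-05). Marchf1, a ubiquitin ligase that removes class II from the surface, fell by 0.43 ± 0.03, and its second tested probe by 1.81. With spike-in scaling 2 of the 11 were called lower and 6 higher, Ctss and Lgmn being still called lower, while Ifi30 and Marchf1 were not called.

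Interferon gamma is the main inducer of Ciita outside professional antigen-presenting cells. Its own gene, Ifng, stayed at background on every array. Of 9 tested genes of its receptor pathway, 7 were called lower and 1 higher (Ifngr2, 0.24), with a median of -0.38. With spike-in scaling 2 were called lower and 3 higher. Socs3 and Jak1 fell by 0.93 ± 0.03 and 0.83 ± 0.02, and the receptor gene Ifngr1 by 0.38 ± 0.03, which turned to 0.06 with spike-in scaling. Of 18 genes that interferon gamma induces, 16 were called lower and 0 higher by limma, with a median of -0.66. For both lists the shares over all genes were 32.5% lower and 27.9% higher. The induced genes called lower included Psmb9, Psmb8, Cxcl10 (a fall of 1.34 ± 0.04) and the GTPase gene Igtp (0.68 ± 0.02). With spike-in scaling 11 of the 18 were called lower and 2 higher. H2-Ab1 and H2-DMb1, rising on all 4 scalings and corrections plotted, thus went against the direction of most genes of this list.

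Genes for the T cell contact were called about as often as genes at large. Cd40, which encodes a receptor for T cell help, rose by 1.17 ± 0.04 and Cd80, a costimulatory ligand gene, by 0.24 ± 0.04. Icosl and Cd274, the genes of the ICOS ligand and PD-L1, fell by 0.85 ± 0.04 and 0.32 ± 0.04, and Cd274 was called higher with spike-in scaling (0.11). Of 8 genes tested, 2 were called higher and 3 lower (median -0.25), beside 27.9% and 32.5% over all genes, or 5 and 2 with spike-in scaling. Cd86, another costimulatory ligand gene, is 1 of the 3 called lower. It was at background on the 3 knockout arrays and was kept for testing through the hetero arrays alone. Under the main processing its fall is given as a bound of 1.31 log2 units (2.48-fold). With normexp the log2 difference was -0.56, smaller than that bound, so the size of the fall rests on the background correction.

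**Figure D4:**
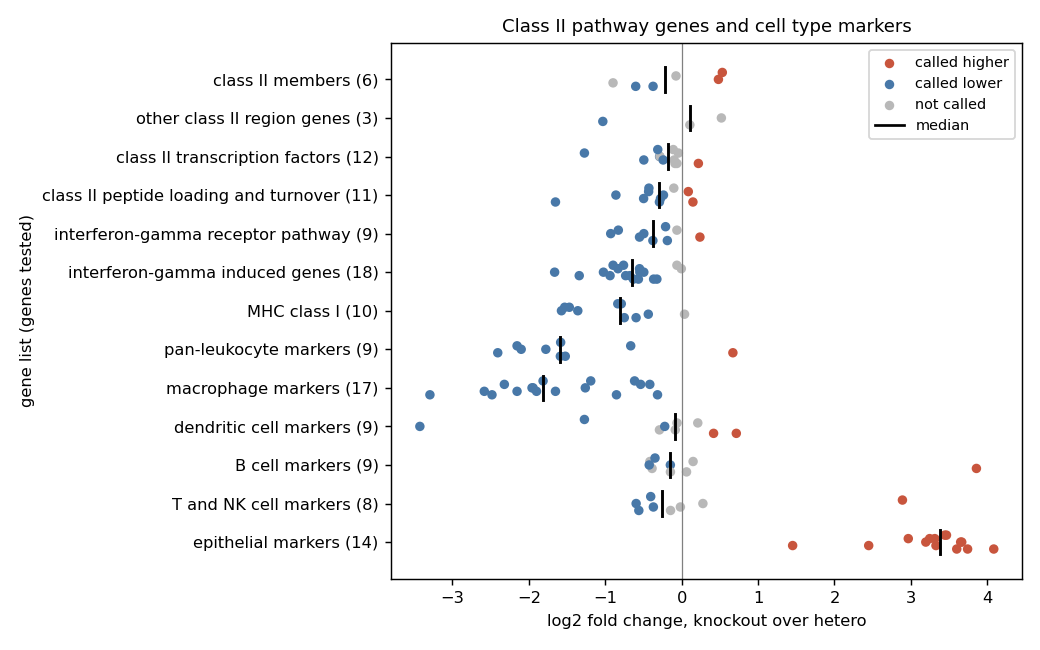
Log2 fold change of knockout over hetero for each tested gene (points) of the class II pathway lists and cell type marker lists, with the number tested in brackets, the median as a black bar and the limma call as colour. Macrophage markers and interferon-gamma induced genes lie below 0, epithelial markers above 0, and the class II genes on both sides of it.

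Markers of the cells that could carry class II moved as well, and in bulk RNA fewer cells of a type cannot be told apart from less RNA per cell. For all marker lists the shares over all genes to set beside the counts are 32.5% lower and 27.9% higher. Of 17 tested macrophage markers, 17 were called lower, with a median of -1.81 and a range from -3.30 to -0.32. Their summed scaled signal, on the linear scale, was 126 to 130 on hetero arrays and 84.9 to 86.7 on knockout arrays. Such sums follow the brightest probes, here Itgam with 57.7% in hetero spheres. Mrc1, the mannose receptor gene, Adgre1, the gene of F4/80, and Lyz2, a lysozyme gene, fell by 3.30, 2.48 and 1.95, the first pair differing by -1.91 and -1.54 with normexp. Ctss also stands in the loading list, and Cd163 was well above background on 0 hetero and 2 knockout arrays. Pan-leukocyte markers were called lower in 8 of 9 and higher in 1 (Cd53, 0.67), with Ptprc, the gene of CD45, falling by 1.52 ± 0.09 (SE, n = 3 each, limma adjusted p = 5.56e-05), or a difference of -0.81 with normexp.

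Dendritic and B cell markers were partly absent. Of 16 dendritic cell markers, 9 were tested, 3 called lower and 2 higher (median -0.08), with summed signals of 92.8 to 106 and 84.4 to 89, of which Siglech made up 92.9% in hetero spheres. Xcr1, Cd209a and Ly75 stayed at background on every array, whereas Clec9a was well above it on 1 hetero array and Flt3 on 2 knockout arrays. Batf3 and Itgax, the gene of CD11c, rose by 0.72 ± 0.03 and 0.42 ± 0.05. Irf8, also in the list of factors, is among those that fell, as is Clec10a. Clec10a was well above background on 1 of 3 knockout arrays, so the size of its fall is uncertain, with a log2 difference of -3.43, or -1.36 with normexp. Of 12 B cell markers, 9 were tested, 3 called lower and 1 higher (median -0.15), with summed signals of 9.56 to 9.74 and 7.98 to 8.25. Blk and Fcrla stayed at background on every array. Ms4a1, the gene of CD20, was the 1 called higher. It was at background on the 3 hetero arrays and was kept for testing through the knockout arrays alone. Under the main processing its rise is given as a bound of 2.41 log2 units (5.31-fold). With normexp the log2 difference was 0.62, smaller than that bound, so the size of the rise rests on the background correction. T and NK cell markers were called lower in 4 of 8 and higher in 1, Klrb1c (2.89, or 1.04 with normexp; median -0.26), with summed signals of 12.9 to 14.3 and 10.8 to 12.1, and Cd3d and Cd8a were not above background.

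Epithelial markers, which check the labelled tissue, were called higher in 14 of 14 (median 3.39), with summed signals of 21.9 to 22.2 on hetero and 191 to 194 on knockout arrays. Of these, Elf3 was not well above background in hetero spheres and was kept for testing through the knockout arrays alone. Its log2 change of 3.47 was 0.33 with normexp. Fibroblast markers were called lower in 7 of 12 and higher in 4 (median -0.35), with summed signals of 2391 to 2608 and 1894 to 1959. Endothelial markers were called lower in 4 of 10 and higher in 2 (median -0.12), with summed signals of 36.3 to 36.7 and 30.01 to 30.98. With spike-in scaling 13 macrophage and 7 pan-leukocyte markers were called lower and 1 of each higher. Dendritic cell markers were then called higher in 5 and lower in 2, B cell markers and T and NK cell markers each in 4 and 0, fibroblast markers in 5 and 5, and endothelial markers in 7 and 0. The part of any of these cell types in the class II values was not tested.

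In the MHC class I list, which also holds B2m and Cd1d1, 9 of 10 tested genes were called lower (median -0.81). Over all tested genes 32.5% were called lower. H2-D1 fell by 1.57 ± 0.02 and H2-K1 fell by 1.47 ± 0.02. With spike-in scaling 8 of the 10 were called lower and 1 higher.

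Genes outside the lists with the nearest profile over the 6 arrays were sought by the Euclidean distance of mean-centred scaled log2 signals. The mean profile of H2-Ab1 and H2-Eb1 was nearly flat because these genes moved in opposite directions, and its nearest genes, Chtf8, 2510039O18Rik, Rp2, Ptpn1 and Slc25a14 (distance 0.02 to 0.05), were not called. Taken singly, a choice made after the values were seen, H2-Ab1 was nearest to Tdg, Aurkaip1 and Cnnm4 (distance 0.03 to 0.04) and H2-Eb1 to Ddx25, Capn12 and Asb4 (0.06 to 0.08). Cd74 was nearest to Galnt5, Cyp46a1 and Olfr868 (0.09 to 0.11).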

How the data were processed

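Total RNA was labelled with Cy3 and hybridised to 6 one-colour Agilent arrays. The scanner files hold intensity per spot, read out by Feature Extraction software (the submitters' processing notes give version 10.7.3.1 of Agilent's), and their processed signal is background-subtracted and detrended within each array per the file headers. The series table, also intensity as deposited by the authors, equals the processed signal divided by 1 constant per array (to 1% in 100% of 46208 probes with a single spot). Its column medians were 0.161, 0.159 and 0.169 (hetero) and 0.163, 0.159 and 0.159 (knockout). It is thus linear and not centred.

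Control spots and outlier spots were left out, spots of a probe were averaged as log2, and the 75th percentile of each array was subtracted. Probes were named through RefSeq accessions with a GRCm38.p6 table (20660 genes); the array header names mm9, so no coordinates but those of the promoter table are given. Probes well above background on at least 3 arrays were kept, and the brightest stood for its gene. Genotypes were compared with limma 3.58.1 in R 4.3.3 without covariates. Each fold is knockout over hetero. For genes at background throughout 1 genotype, the fold is a bound, set per array by the lowest signal still counted as above background. The fit was tested on simulated data. Quantile, median and spike-in scaling, normexp, other filters, averaged probes, the deposited table, a replicate block and leaving out each array were tried as alternatives. The number of arrays limits the precision.

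The 8 genes and all lists were chosen with earlier results of these data known. Named genes were the 8, up to 4 genes of smallest p in each pathway list and the nearest profiles. Other list genes named were picked after their values were seen. They include NF-Y and RFX genes, Creb1, Ifngr2, Ifng, Sppl2a, Ctsd, Cd86, Tap1, Tap2 and single markers. All arrays lay on the same slide and were scanned together, per the file headers, so there was no slide or scan batch to fit. The labels name no batch of culture, RNA preparation or labelling. A batch that followed genotype could therefore not be told apart from it. Same-numbered replicates did not deviate together (correlations -0.12, -0.02 and -0.01), so the numbers were not taken as pairs.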

Additional observations from a re-analysis of the deposited data

How the results depend on the processing

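The class II genes, the counts and medians of the lists and the counts over all genes were recomputed under 15 alternatives: quantile, median and spike-in scaling, normexp background correction, no filter on dim probes, probes above background on all 6 arrays, probes of a gene averaged, the deposited table, a replicate block and 6 fits that each left out 1 array. Single genes of the lists were recomputed under the 3 scalings and normexp alone, and bounds and nearest profiles under none. H2-Ab1 (0.46 to 0.92) and H2-DMb1 (0.50 to 0.97) kept their direction and call under all 15. With spike-in scaling H2-Eb1 was 0.065 here and in the fit of all probes, H2-DMa was 0.36 in both fits, and Cd74 was -0.16. Class II genes called lower were then 0, because this scaling adds 0.44 to every gene. Over all genes it gave 11680 higher and 1174 lower calls, or 90.9% higher, against 4416 and 5155, or 46.1%. The scanner files hold no mean spot signal, so normexp used the median spot signal. Ciita passed with normexp (-0.38, adjusted p = 0.0468) and with the replicate block (-0.90, adjusted p = 0.0196), and its adjusted p ran from 0.0196 to 0.442. It dropped out where every array had to be above background. The replicate block changed no other class II call, gave 8496 calls over all genes, and 0 of 6 arrays correlated best with its own number. Leaving out 1 array gave -0.42 to -0.32 for H2-Eb1, -0.66 to -0.51 for Cd74, -0.09 to -0.05 for H2-DMa and -1.23 to -0.46 for Ciita, with no change of call. The 5 within-array ratios kept their direction in each alternative run, and Ciita to H2-Ab1 was -0.89 with normexp. Dim signal limits Ciita, H2-Aa and H2-DMb2.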
